A study of Mus musculus with 20 samples.

Results

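Mitochondrial ribosomal proteins are the protein subunits of the ribosome that works inside mitochondria. All are encoded in the nucleus, made in the cytosol and imported, and inside the organelle they join ribosomal RNAs encoded by mitochondrial DNA. The finished particle, the mitoribosome, translates a small set of membrane proteins, all of them subunits of the respiratory chain and of ATP synthase, so muscle depends on it for oxidative metabolism. The genes described here were those whose name on the array was Mrpl or Mrps, for the large and the small subunit, followed by a number and at most 1 letter. The rule found 75 genes, 46 Mrpl and 29 Mrps, among 25292 genes tested, and it used names only. They were read by 125 probes, and the probe with the highest mean over all 20 arrays stood for its gene.

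RNA was taken from whole soleus, which holds posture and has many slow fibres, and whole gastrocnemius, a mixed calf muscle with mostly fast fibres, of male ICR mice aged 6 months. The 4 groups were soleus after hind-limb suspension (HLS), soleus of controls, gastrocnemius after HLS and gastrocnemius of controls. HLS animals hung by the tail with the head down for 24 h, so that the hind limbs carried no weight, and control animals moved freely over the same 24 h. Every group held 5 one-colour arrays from 5 animals, and both muscles of an animal were used, so 10 mice gave 20 arrays. The mice carried no transgene or mutant allele that the labels name, and 1 day of suspension of 1 sex and strain is all that the comparison covers.

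Levels below are log2 intensities relative to the 75th percentile of the same array, and changes are log2 differences ± SE from a limma model of all 20 arrays. A gene is said to have changed where its adjusted p, after Benjamini-Hochberg over 25292 genes, was below 0.05. Replicate arrays correlated at 0.9711 to 0.9883, and Tnni1, the troponin gene of slow fibres, stood 3.76 higher in soleus than in gastrocnemius of controls (adjusted p = 5.7e-06). Soleus HLS 1 stood apart from the other soleus arrays in fibre markers: the summed linear level of 8 slow fibre genes was 848 there, the lowest of the HLS soleus group, whose highest was 2190, against 1810 to 2320 in control soleus. Slides and scan days followed the groups closely, and no slide held both muscles. Only slide 5 held soleus arrays of both conditions (3 HLS, 1 control) and only slide 2 held gastrocnemius arrays of both (1 HLS, 3 control). All 75 members were well above background on all 20 arrays and none was saturated, so every member passed the filter on dim probes. In whole muscle, fewer cells of a type and less RNA per cell cannot be told apart.

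After suspension most mitochondrial ribosomal protein genes stood slightly below their control level in both muscles, and 8 of the 75 fell in at least 1 of them. In gastrocnemius, 7 members fell: Mrpl34, Mrpl15, Mrpl43, Mrpl19, Mrpl3, Mrps6 and Mrpl36. In soleus, 3 fell: Mrpl19, Mrps6 and Mrpl18. No member rose in either muscle (1.17% of all genes rose in gastrocnemius and 2.42% in soleus), and none reached a 2-fold change. Among all genes, 2% were called lower in gastrocnemius after HLS (3.17% in either direction) and 3.53% in soleus (5.95% in either direction). At an unadjusted p below 0.05, 21 members were lower and 1 higher in gastrocnemius (7.84% and 6.82% of all genes), and 12 were lower and 2 higher in soleus (8.5% and 9.44%). The 7 of 75 members lie above the background share and the 3 of 75 close to it. The 2 members that fell in both muscles, Mrpl19 and Mrps6, stand against 1.42% of all genes.

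The median change over the 75 members was -0.13 in gastrocnemius, beside 0.011 over all genes, and -0.078 in soleus, beside 0.054 over all genes. Below 0 stood 62 members in gastrocnemius (47.6% of all genes did) and 51 in soleus (39.6% of all genes). In gastrocnemius 82.7% of members stood below 0, beside 81.8% of oxidative phosphorylation subunits and 57.5% of cytosolic ribosomal protein genes. The shares in soleus were 68%, 49.4% and 67.5% in the same order, so each related list came near the members in a single muscle. Both muscles stood below 0 for 46 members, against 25.1% of all genes, and both above 0 for 8. The soleus median was -0.044 without soleus HLS 5, and under quantile normalization it was -0.02, with 41 members below 0 and 34 above, beside 0.02 over all genes. Scaling to spike-in RNA moved the median of all genes to 0.789 in gastrocnemius and -0.207 in soleus. On that scale the members stood at 0.648 in gastrocnemius and -0.338 in soleus, so the sign in gastrocnemius holds only relative to the other genes.

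Markers of fibre and cell types also differed after HLS, mostly in soleus. The median change in soleus was -0.533 for 8 slow fibre genes, all below 0, and 0.308 for 9 fast fibre genes, all above 0. It was -0.596 for 6 adipocyte genes and -0.517 for 6 Schwann cell genes, all below 0, and no gene of these 4 lists passed. The summed linear levels overlapped: slow fibre genes gave 848 to 2190 in HLS soleus and 1810 to 2320 in control soleus, and fast fibre genes 1920 to 4090 and 1840 to 2800 in the same groups. Adipocyte genes gave 127 to 344 in HLS soleus and 179 to 416 in control soleus, and Schwann cell genes 21.8 to 72.4 and 23.3 to 96.1. In gastrocnemius the medians were 0.078 for slow fibre, 0.029 for fast fibre, -0.183 for adipocyte and -0.253 for Schwann cell genes. Other marker lists did hold calls. In soleus 1 of 5 smooth muscle genes fell (median -0.337), and of 3 satellite cell genes 1 rose and 1 fell. In gastrocnemius 1 of 7 endothelial genes fell (median -0.01), and smooth muscle genes had a median of -0.314 without a call. Macrophage, fibroblast and erythroid lists held no call in either muscle. The part of any marker list in the members' changes was not tested.

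**Figure D1:**
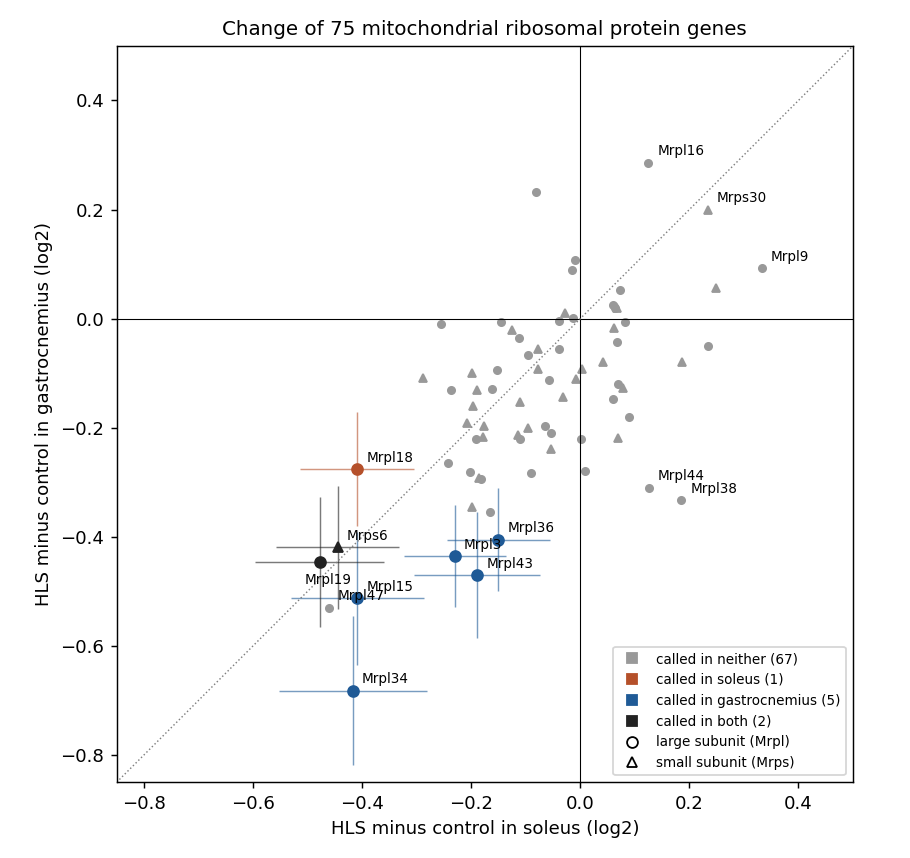
Each point is 1 of the 75 members, placed by its log2 difference between HLS and control in soleus (horizontal axis) and gastrocnemius (vertical axis), with SE bars on the 8 that fell; circles are Mrpl, triangles Mrps, and the dotted line marks equal change. The called members lie in the lower left, and 46 of 75 points lie below 0 on both axes.

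Mrpl19 fell in both muscles. Its product has a counterpart in the large subunit of bacterial ribosomes, and the gene lies at chr6:81957826-81965949 (GRCm38.p6), where it overlaps Gcfc2. In soleus its level was 0.26, 0.26, -0.029, 0.29 and -0.25 on the 5 HLS arrays, against 0.52, 0.47, 0.62, 0.55 and 0.75 on the 5 control arrays. Every HLS array lay below every control array, and the change was -0.48 ± 0.12 (adjusted p = 0.018), which leaves 71.8% of the control level. In gastrocnemius the HLS arrays gave -0.099, 0.15, 0.047, 0.20 and 0.15, against 0.41, 0.68, 0.81, 0.48 and 0.30 on control arrays. These groups did not overlap either, with a change of -0.45 ± 0.12 (adjusted p = 0.043).

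Mrps6 also fell in both. It encodes a small-subunit protein related to the bacterial ribosomal protein of the same number, and its locus at chr16:92058336-92112227 overlaps Slc5a3. Soleus levels were 2.42, 2.58, 2.48, 2.49 and 2.28 after HLS, against 3.12, 2.46, 2.89, 2.92 and 3.09 in controls. Control array 2 lay within the HLS range and the other controls lay above it, and the change was -0.45 ± 0.11 (adjusted p = 0.021). Gastrocnemius levels were 2.17, 2.29, 2.28, 1.92 and 2.22 after HLS and 2.51, 2.61, 2.71, 2.58 and 2.57 in controls, with no overlap. The change there was -0.42 ± 0.11 (adjusted p = 0.046), and a second probe of the gene gave -0.33 in soleus and -0.3 in gastrocnemius.

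Mrpl18, whose bacterial counterpart binds the smallest ribosomal RNA, fell in soleus. Its levels there were 3.36, 3.65, 3.51, 3.88 and 3.31 on HLS arrays, against 4.06, 4.03, 3.81, 3.76 and 4.11 on control arrays. The groups overlapped through HLS array 4, and the change was -0.41 ± 0.10 (adjusted p = 0.022). In gastrocnemius the HLS arrays stood at 3.22, 3.32, 3.28, 3.37 and 3.24, against 3.47, 3.67, 3.57, 3.60 and 3.50 in controls. The gastrocnemius groups did not overlap, yet the difference of -0.28 ± 0.10 did not pass (adjusted p = 0.19). All 3 probes of Mrpl18 gave negative differences in both muscles. The gene, at chr17:12911345-12917787, overlaps Tcp1, which encodes a subunit of the cytosolic chaperonin.

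The change in gastrocnemius was largest for Mrpl34, a small protein of the large subunit with a bacterial counterpart. HLS arrays gave 2.62, 2.67, 2.61, 2.65 and 2.53, against 3.12, 3.49, 3.24, 3.31 and 3.32 on control arrays. The HLS values span a narrow range and lie well below every control, and the fall was 0.68 ± 0.14 (adjusted p = 0.0064), to 62.3% of the control level. Soleus levels were 2.66, 2.56, 2.56, 2.68 and 2.43 after HLS and 3.32, 3.34, 2.94, 2.39 and 3.01 in controls. Control array 4 was the lowest of the 10 soleus arrays while the other 4 controls lay above all HLS arrays, and the difference of -0.42 ± 0.14 did not pass (adjusted p = 0.077).

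Mrpl15, a large-subunit protein with a bacterial counterpart, stood at 1.35, 1.29, 1.40, 1.43 and 1.25 in HLS gastrocnemius, against 1.86, 1.75, 1.73, 1.98 and 1.97 in control gastrocnemius. The groups were clearly apart, at -0.51 ± 0.12 (adjusted p = 0.023). In soleus its levels of 1.91, 1.60, 1.84, 2.06 and 1.47 after HLS, against 2.17, 2.38, 1.95, 2.48 and 1.95 in controls, overlapped at 1 HLS array, and the difference was -0.41 ± 0.12 (adjusted p = 0.052). Mrpl3, mutated in a human cardiomyopathy of infants, had levels of 3.56, 3.26, 3.40, 3.46 and 3.32 in HLS gastrocnemius and 3.99, 3.73, 3.87, 3.89 and 3.72 in control gastrocnemius. It fell there by 0.43 ± 0.094 (adjusted p = 0.011), without overlap. The 3 other probes of Mrpl3 ranged from -0.56 to -0.032 there, and with the mean of all its probes the gene did not pass (adjusted p = 0.093). Soleus values of Mrpl3 were 3.77, 3.75, 3.71, 3.76 and 3.41 after HLS, against 4.03, 3.92, 3.95, 3.81 and 3.84 in controls. These were also apart, but array 5 alone set much of the HLS spread and the difference of -0.23 ± 0.094 did not pass (adjusted p = 0.18).

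Mrpl36, the mitochondrial form of a small zinc-binding ribosomal protein of bacteria, stood at 2.91, 2.79, 2.90, 2.88 and 2.86 in HLS gastrocnemius, against 3.08, 3.34, 3.29, 3.33 and 3.33 in controls. All HLS arrays lay below control array 1, itself the lowest control, and the change was -0.41 ± 0.095 (adjusted p = 0.021). Mrpl43, a large-subunit protein without a bacterial counterpart, gave 3.85, 3.37, 3.56, 3.71 and 3.55 in HLS gastrocnemius and 3.78, 4.17, 4.14, 4.06 and 4.23 in control gastrocnemius. Here the groups overlapped at HLS array 1 and control array 1, and the change was -0.47 ± 0.12 (adjusted p = 0.027). Its second probe moved less, by -0.15, and with the mean of both probes Mrpl43 did not pass (adjusted p = 0.13). Neither gene passed in soleus, at -0.15 (adjusted p = 0.45) for Mrpl36 and -0.19 (adjusted p = 0.43) for Mrpl43. Mrpl43 overlaps Twnk, the gene of the mitochondrial DNA helicase, at chr19:45005014-45006442.

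**Figure D2:**
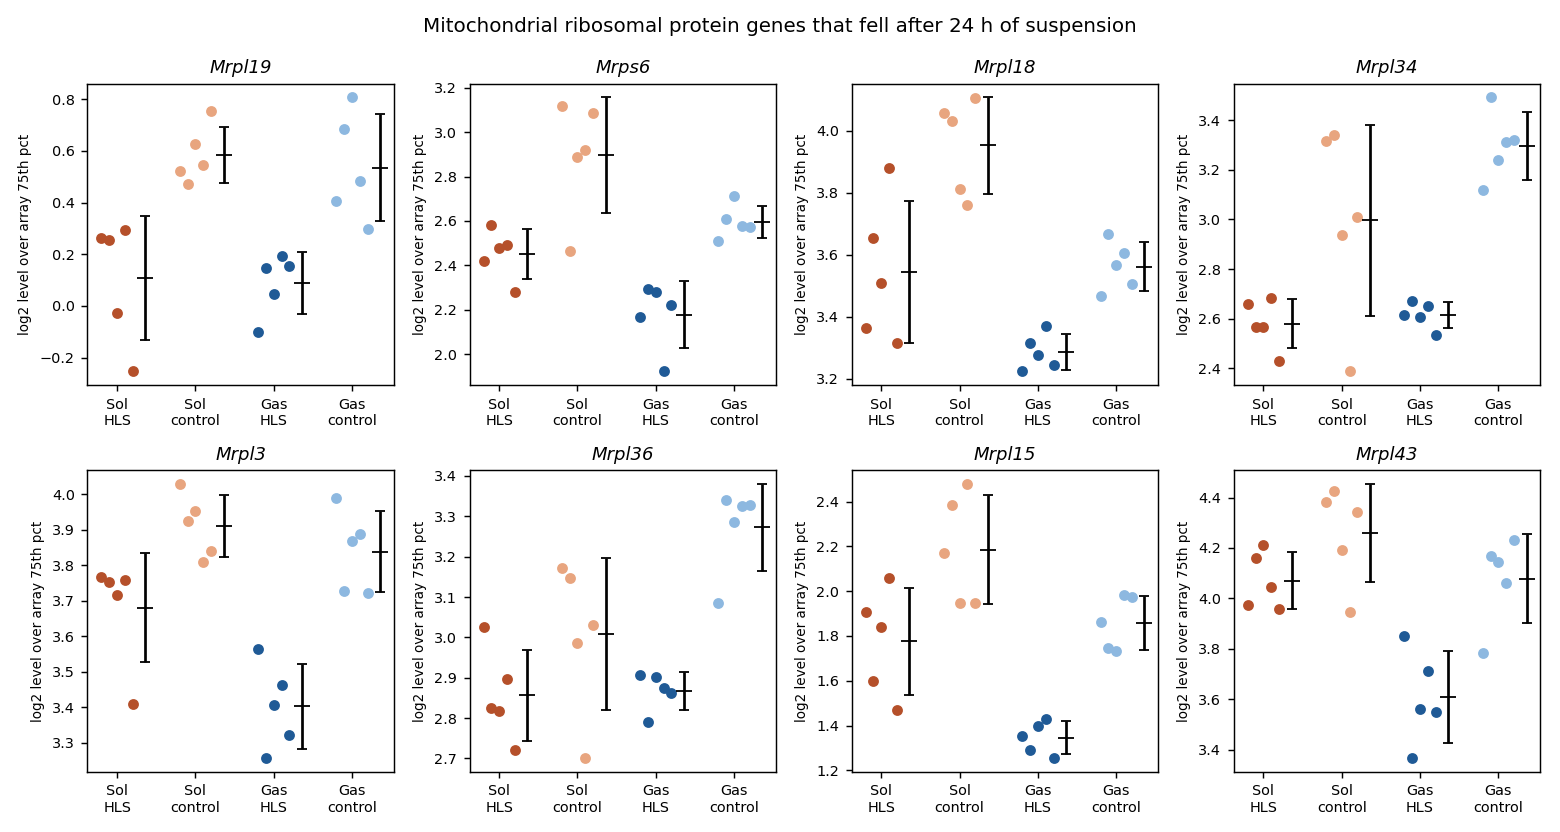
Each panel shows 1 of the 8 members that fell, with the log2 level over the array's 75th percentile on all 20 arrays (points; replicates 1 to 5 from left to right) and the group mean with its SD (bars), for soleus (Sol) and gastrocnemius (Gas), HLS left of control. Mrpl19 and Mrps6 are lower after HLS in both muscles, and Mrpl34, Mrpl36, Mrpl3 and Mrpl15 separate without overlap in gastrocnemius.

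In all, the HLS and control arrays did not overlap for 12 members in gastrocnemius, all of them lower after HLS (4.48% of all genes), and for 2 in soleus, also lower (2.87% of all genes). No member was higher without overlap, where 2.95% of all genes were in gastrocnemius and 2.2% in soleus. Calls within batches could be read only as differences. Within slide 2 (1 HLS, 3 control arrays) the gastrocnemius differences of the 7 fallen members ranged from -0.68 for Mrpl34 to -0.26 for Mrpl3, and within slide 5 (3 HLS, 1 control) the soleus differences were -0.60 for Mrpl18, -0.59 for Mrps6 and -0.59 for Mrpl19. On scan day 1 (1 HLS, 5 control arrays) the gastrocnemius differences ran from -0.68 for Mrpl34 to -0.23 for Mrpl43. On scan day 2 (3 HLS, 5 control arrays) the soleus differences were -0.45, -0.40 and -0.42, and without soleus HLS 1 -0.37, -0.36 and -0.47, for Mrpl18, Mrps6 and Mrpl19. The members' median was -0.074 within slide 2 and -0.129 within slide 5, beside 0.002 and 0.039 over all genes. With slide or scan day as a fixed block, no member passed in either muscle. The count in soleus was 0 without HLS 5, 1 without control 1 and 2 without HLS 1. In gastrocnemius it was 2 without HLS 2, HLS 5 or control 4, 3 without control 2 or control 5, and 4 without HLS 3 or control 3. Mrpl34 and Mrpl3 kept their call in gastrocnemius with any 1 array left out, whereas Mrps6 lost it in all 10 such fits and Mrpl19 in 9.

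Promoters were read for the 66 members that matched RefSeq's promoter table (GRCm38.p6), as the 250 bases before an annotated start. Nuclear genes of mitochondrial proteins are often bound by nuclear respiratory factor 1, by GABP of the ETS family and by YY1, so 3 motifs were searched on both strands: the palindromic core of nuclear respiratory factor 1, CCGGAAG for ETS factors and AAGATGGC for YY1. None of the matches shown overlaps another. The ETS motif lay in 16 of the 66 member promoters (24.2%), against 7.05% of 27025 promoters of all genes and 9.13% of those of protein-coding genes. The nuclear respiratory factor 1 core lay in 3 (4.55%, against 0.781% of all and 1.06% of protein-coding ones). The YY1 motif lay in 4 (6.06%, against 1.59% of all and 1.51% of protein-coding ones). The member promoters were also richer in G and C, with a median of 58.4%, against 52% over all promoters and 55.2% over protein-coding ones. Of the 8 members that fell, 6 were in the table, and they are shown because they carry the calls after HLS: Mrpl3 (chr9:105053018-105053267, plus strand), Mrpl18 (chr17:12916092-12916341, minus strand), Mrpl34 (chr8:71464676-71464925, plus strand), Mrpl36 (chr13:73330759-73331008, plus strand), Mrpl43 (chr19:45006443-45006692, minus strand) and Mrps6 (chr16:92058086-92058335, plus strand). Capitals mark the ETS motif, or in Mrpl36 the YY1 motif on the opposite strand, and each runs 5′ to 3′ towards the start.
Mrpl3: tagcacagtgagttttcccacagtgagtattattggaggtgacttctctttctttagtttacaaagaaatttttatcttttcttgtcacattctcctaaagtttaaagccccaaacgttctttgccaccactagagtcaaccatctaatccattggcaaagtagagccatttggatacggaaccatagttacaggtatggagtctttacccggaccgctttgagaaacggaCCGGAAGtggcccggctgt
Mrpl18: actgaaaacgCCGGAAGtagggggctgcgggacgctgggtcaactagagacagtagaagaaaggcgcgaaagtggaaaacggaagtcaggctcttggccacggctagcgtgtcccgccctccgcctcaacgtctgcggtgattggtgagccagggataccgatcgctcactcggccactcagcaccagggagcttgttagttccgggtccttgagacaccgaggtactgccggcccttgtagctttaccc
Mrpl34: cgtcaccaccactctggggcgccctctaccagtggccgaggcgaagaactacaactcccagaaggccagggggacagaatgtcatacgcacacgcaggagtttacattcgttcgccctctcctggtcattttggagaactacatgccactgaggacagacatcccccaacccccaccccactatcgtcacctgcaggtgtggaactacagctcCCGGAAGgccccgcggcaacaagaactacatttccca
Mrpl36: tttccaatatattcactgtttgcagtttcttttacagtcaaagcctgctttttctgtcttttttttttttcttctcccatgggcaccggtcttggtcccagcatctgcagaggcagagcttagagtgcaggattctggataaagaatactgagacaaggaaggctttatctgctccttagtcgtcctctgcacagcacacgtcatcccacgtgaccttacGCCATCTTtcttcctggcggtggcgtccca
Mrpl43: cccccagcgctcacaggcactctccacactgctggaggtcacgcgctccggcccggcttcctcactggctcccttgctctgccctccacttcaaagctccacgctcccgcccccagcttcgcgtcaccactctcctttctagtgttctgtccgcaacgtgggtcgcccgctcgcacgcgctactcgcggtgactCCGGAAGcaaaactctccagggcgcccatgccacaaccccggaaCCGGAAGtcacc
Mrps6: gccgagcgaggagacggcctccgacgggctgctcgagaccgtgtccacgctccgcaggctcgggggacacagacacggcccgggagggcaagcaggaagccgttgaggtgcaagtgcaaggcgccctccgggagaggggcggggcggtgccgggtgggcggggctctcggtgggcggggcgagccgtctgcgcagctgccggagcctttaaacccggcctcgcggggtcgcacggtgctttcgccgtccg

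The ETS motif began 19 bases before the start in Mrpl3, 37 in Mrpl34, 240 in Mrpl18, and 56 and 12 in Mrpl43, which holds it at both places. Mrps6 held none of the 3 motifs in this window. For Mrpl18 and Mrpl36 the window lies inside the span that RefSeq gives the gene, so the start used was not the outermost one. Across the 66 members, those with the ETS motif had a median change of -0.203 in gastrocnemius and -0.182 in soleus after HLS, and the 50 without it -0.128 in gastrocnemius and -0.061 in soleus. The order was the opposite for the nuclear respiratory factor 1 core: the 3 members with it had medians of 0.09 in gastrocnemius and -0.015 in soleus, and the 63 without it -0.131 in gastrocnemius and -0.09 in soleus. For YY1 the 4 members with the motif had -0.151 in gastrocnemius and -0.082 in soleus, and the 62 without it -0.13 in gastrocnemius and -0.086 in soleus. None of these differences was tested. A match of letters is a description of the sequence, and binding was not measured here.

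By name, Mrpl and Mrps genes had medians of similar size, although a name does not always give the subunit, as with Mrps30 and Mrps36. The 46 Mrpl genes had a median of -0.138 in gastrocnemius and -0.074 in soleus, and the 29 Mrps genes -0.128 and -0.078. Called lower were 6 of 46 Mrpl genes in gastrocnemius (13%) and 2 of 46 in soleus (4.35%), and of 29 Mrps genes Mrps6 alone in each muscle (3.45%). Among all genes 2% were called lower in gastrocnemius and 3.53% in soleus, and the difference between Mrpl and Mrps was not tested. The 44 members whose number is that of a bacterial ribosomal protein (up to 36 for Mrpl, up to 21 for Mrps) had medians of -0.124 in gastrocnemius and -0.093 in soleus, with 6 called in gastrocnemius (13.6%) and 3 in soleus (6.82%). The 31 with higher numbers, which have no bacterial namesake, had -0.181 in gastrocnemius and -0.054 in soleus, with 1 called in gastrocnemius (3.23%) and 0 in soleus. This difference was not tested either.

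Members followed for their role, whatever their values, mostly did not pass. Mrpl12, the stalk protein that recruits translation factors and also binds the mitochondrial RNA polymerase, differed by -0.28 in gastrocnemius (adjusted p = 0.33) and -0.20 in soleus (adjusted p = 0.47). Its neighbour at the stalk base, Mrpl11, stood at -0.066 in gastrocnemius and -0.096 in soleus. Mrps12 and Mrps5, whose bacterial counterparts affect the accuracy of decoding, did not pass: -0.11 and 0.02 in gastrocnemius, -0.008 and 0.068 in soleus. The 95% interval for Mrps12 was -0.30 to 0.075 in gastrocnemius and -0.19 to 0.18 in soleus. Small-subunit proteins linked to human mitochondrial disease stood at -0.20 (Mrps16), -0.099 (Mrps22), -0.08 (Mrps7) and -0.055 (Mrps34) in gastrocnemius, and at -0.18, -0.20, 0.041 and -0.077 in soleus. Mrpl35 differed by -0.007 in gastrocnemius and 0.082 in soleus.

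Of the 3 paralogues of bacterial S18, Mrps18a stood at -0.11 in gastrocnemius and -0.29 in soleus, Mrps18b at -0.13 and 0.078, and Mrps18c at -0.092 and -0.078, none of which passed. Mrps36, whose product is now known as a subunit of the oxoglutarate dehydrogenase complex and not of the ribosome, differed by -0.34 (adjusted p = 0.15) in gastrocnemius and -0.20 (adjusted p = 0.43) in soleus. Mrps30, which structures place in the large subunit despite its name, was among the few members above 0 in both muscles. It stood at 2.53, 2.24, 2.41, 2.35 and 2.18 in HLS soleus, against 2.19, 1.97, 2.11, 2.00 and 2.28 in control soleus. In gastrocnemius it stood at 2.01, 1.81, 1.98, 2.07 and 2.20 after HLS and 1.84, 1.85, 1.87, 1.84 and 1.67 in controls. HLS arrays were mostly the higher ones, with differences of 0.23 ± 0.096 in soleus (adjusted p = 0.18) and 0.20 ± 0.096 in gastrocnemius (adjusted p = 0.34), and neither passed. Quantile normalization called 5 members in soleus, 2 of them higher after HLS and 3 lower, where it called 1474 of 25292 genes.

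No member differed between the muscles in its response to HLS: 0 of 75 passed the test of the difference in limma, where 2 of 25292 genes did (0.00791%). At an unadjusted p below 0.05 stood 2 members, Mrpl44 and Mrpl38, both with a positive difference (3.37% of all genes were higher and 2.39% lower at that level). Mrpl44, an RNase III-like protein of the large subunit, had the lowest p. In soleus it stood at 2.48, 2.67, 2.66, 2.84 and 2.87 after HLS and 2.67, 2.90, 2.40, 2.46 and 2.47 in controls, with wide overlap. In gastrocnemius it stood at 2.03, 1.89, 2.11, 2.15 and 2.01 after HLS, against 2.29, 2.36, 2.23, 2.39 and 2.47 in controls, without overlap. The soleus change minus the gastrocnemius change was 0.43 ± 0.15 (adjusted p = 0.65 in limma). For Mrpl38 the same difference was 0.52 ± 0.18 (adjusted p = 0.66), for Mrpl41 0.27 (adjusted p = 0.87) and for Mrpl36 0.26 (adjusted p = 0.88). A member called in 1 muscle is therefore not shown to respond differently in the other.

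**Figure D3:**
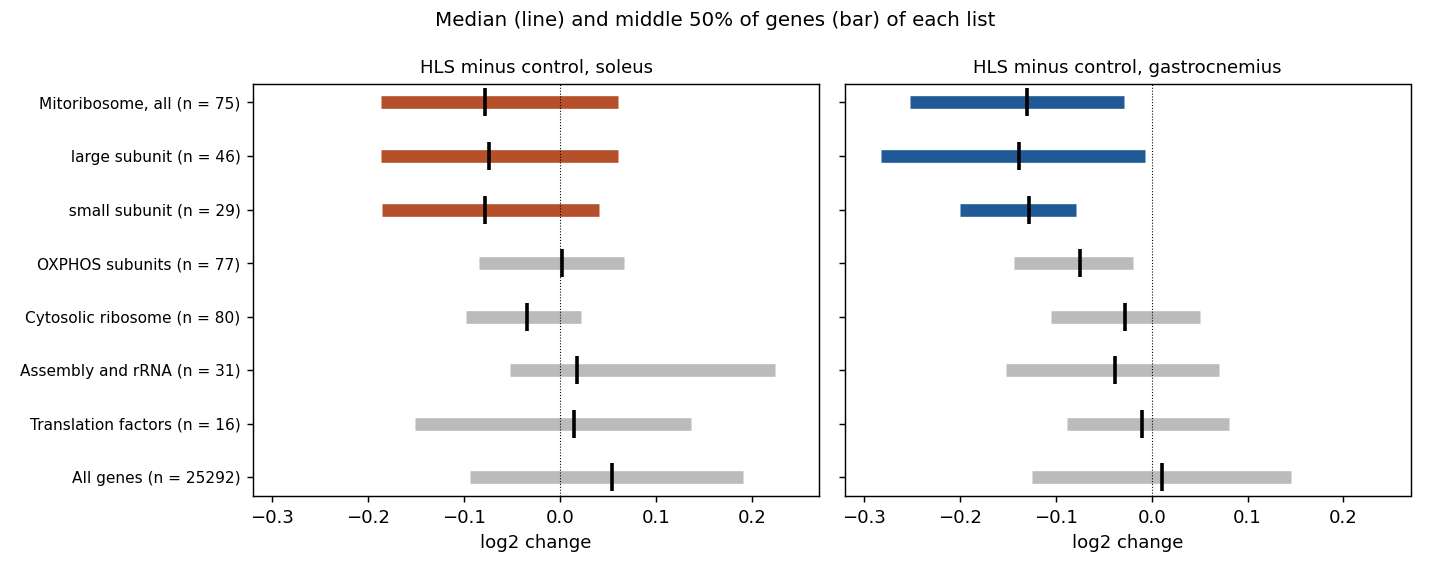
Bars span the middle 50% of the log2 changes of each gene list, HLS minus control, and the line marks the median, for soleus (left) and gastrocnemius (right). Members lie at -0.078 in soleus and -0.13 in gastrocnemius. These medians are below those of the 5 lists drawn in grey (oxidative phosphorylation, cytosolic ribosome, assembly, translation factors and all genes). Lists not drawn reach lower medians. Among them are regulators in soleus (-0.086) and a list of 7 mitoribosomal genes outside the naming rule in gastrocnemius (-0.208). Several cell type marker lists are lower too, such as Schwann cell genes (-0.517 in soleus, -0.253 in gastrocnemius).

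Subunits of oxidative phosphorylation and of the cytosolic ribosome were set beside the members as the most like groups of genes. Of 77 oxidative phosphorylation subunits, 1 fell in gastrocnemius (Cox6a1, -0.61) and 2 in soleus (Ndufb5, -0.41, and Ndufb3, -0.31), with medians of -0.075 in gastrocnemius and 0.002 in soleus. Of 80 genes listed by name as cytosolic ribosomal proteins, Rpl7l1 alone fell, by 0.44 in gastrocnemius and 0.45 in soleus. That gene is named as Rpl7-like and entered through the name pattern. The medians of the list were -0.028 in gastrocnemius and -0.035 in soleus. The difference between these lists and the members was not tested. By array, the members' median of mean-centred levels averaged -0.11 ± 0.056 in HLS gastrocnemius and 0.032 ± 0.079 in control gastrocnemius. It averaged -0.015 ± 0.099 in HLS soleus and 0.088 ± 0.06 in control soleus (SD, n = 5 each). Soleus HLS 5 was the lowest soleus array, at -0.172, and was also the lowest of the soleus arrays for oxidative phosphorylation subunits (-0.094) and cytosolic ribosomal proteins (-0.128). Without this array no member passed in soleus.

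**Figure D4:**
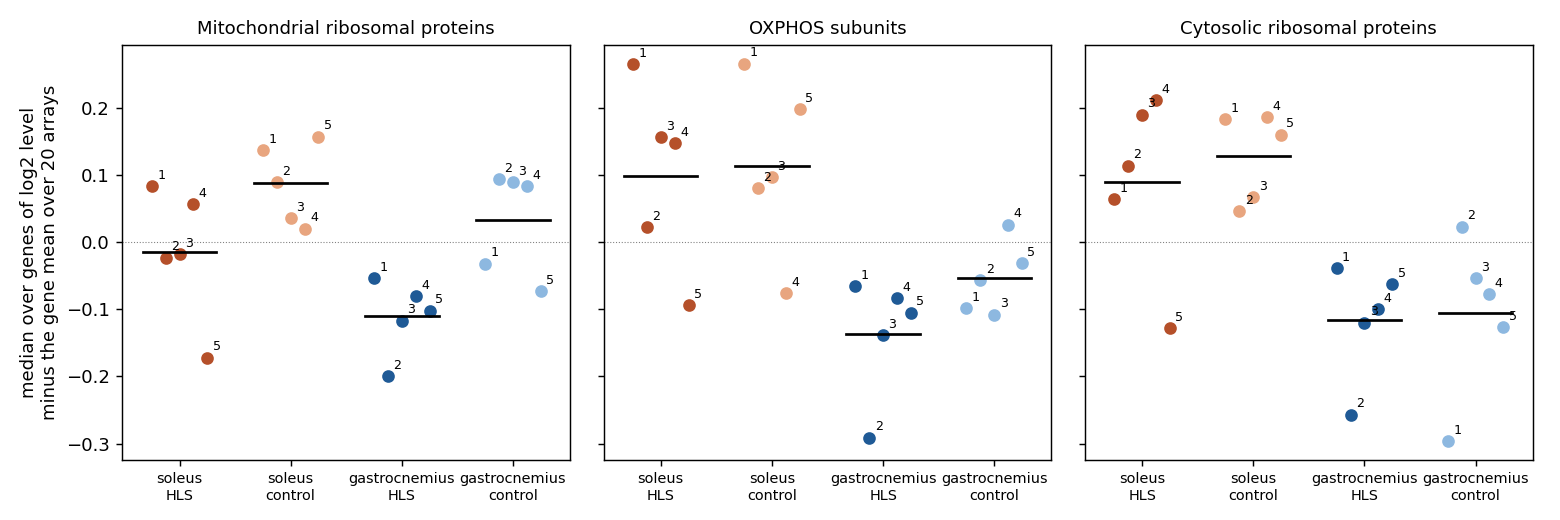
Points are the 20 arrays, numbered by replicate, HLS left of control within each muscle, and the bar is the group mean. The vertical axis is the median over the genes of a list of the log2 level minus the gene's mean over all arrays; for the members, HLS gastrocnemius arrays lie between -0.2 and -0.053, and control gastrocnemius arrays between -0.073 and 0.094.

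Soleus and gastrocnemius differed in 17 of 75 members after HLS, 16 higher in soleus and 1 lower, and in 18 in controls, 14 higher and 4 lower, with a split that turned under quantile normalization (7 to 8 after HLS, 3 to 16 in controls). No slide held both muscles, so a difference between muscles and one between slides cannot be told apart here. Between the muscles, 30.9% of all genes differed after HLS and 33.6% in controls, a larger share than the 22.7% and 24% of members. After HLS the highest ratios of soleus over gastrocnemius were those of Mrpl44 (0.67 ± 0.10, adjusted p = 0.00013), Mrpl41 (0.59 ± 0.099, adjusted p = 0.00021), Mrpl20 (0.52), Mrpl55 (0.51), Mrpl43 (0.46) and Mrpl14 (0.45). The second probe of Mrpl43 gave -0.044, and with the mean of both it did not pass (0.21, adjusted p = 0.13). Mrpl1, whose bacterial counterpart forms the mobile stalk by the exit site of the ribosome, was lower in soleus (-0.32, adjusted p = 0.041). Within scan day 2 (3 soleus and 4 gastrocnemius HLS arrays) Mrpl44 differed by 0.56, Mrpl41 by 0.49 and Mrpl1 by -0.21. A fit with the day as a block called 12 members after HLS, where 5594 of 25292 genes passed. Without overlap, 11 members were higher in soleus after HLS (8% of all genes) and 12 in controls (8.3%). None was lower without overlap, where 9.74% of all genes were after HLS and 13.3% in controls. Higher calls made up 13.3% of all genes after HLS and 12.7% in controls, and lower calls 17.6% and 20.9%.

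Mrpl41, a large-subunit protein without a bacterial counterpart, shows the pattern by array. After HLS it stood at 3.94, 4.07, 4.16, 4.19 and 4.50 in soleus, against 3.64, 3.40, 3.60, 3.56 and 3.68 in gastrocnemius. In controls it stood at 4.18, 4.11, 4.03, 3.96 and 4.14 in soleus and 3.64, 3.77, 3.76, 3.87 and 3.76 in gastrocnemius. All soleus arrays lay above all gastrocnemius arrays in both conditions. A second probe of Mrpl41 gave 0.068 after HLS and -0.33 in controls, and with the mean of its probes the gene passed after HLS (0.33) and not in controls (-0.001, adjusted p = 1). In controls, Mrpl33 had the highest difference, at 6.75, 6.94, 6.80, 6.81 and 6.83 in soleus and 5.96, 6.43, 6.26, 6.44 and 6.34 in gastrocnemius (0.54 ± 0.12, adjusted p = 0.0018). Its second probe gave -0.18, and with the mean of both the gene did not pass (adjusted p = 0.12). The next highest were Mrpl28 (0.46, adjusted p = 0.0015), Mrpl14 (0.41, from 4 of 5 gastrocnemius arrays), Mrpl55 (0.39), Mrpl18 (0.39) and Mrpl40 (0.36). The 2 other probes of Mrpl40 gave 0.015 and -0.27, and with the mean of its probes it did not pass (0.034, adjusted p = 0.81). Lower in soleus were Mrpl38 (-0.54 ± 0.12, adjusted p = 0.0027), Mrpl4 (-0.43), Mrpl1 (-0.34) and Mrpl36 (-0.27).

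The direction of the difference between muscles depended on the scaling. The members' median, soleus minus gastrocnemius, was 0.083 after HLS (all genes -0.026) and 0.047 in controls (all genes -0.055). Median scaling moved all genes to 0.118 after HLS and 0.11 in controls. It put the members at 0.227 and 0.212, with splits of 30 higher to 0 lower and 23 to 1. Under this scaling 9052 of 25292 genes differed after HLS and 9305 in controls. Quantile normalization put the members at -0.041 and -0.098, so the sign of the family turned. No scan day held both control groups, and a fit with the day as a block gave a difference for no member between control muscles (0 of 75, where 1374 genes passed). Without 1 array the control count ranged from 10 to 17, with 10 without gastrocnemius control 1 and 11 without gastrocnemius control 3 or soleus control 4. With the mean of a gene's probes, 14 members differed in each condition, where 7411 of 25292 genes did after HLS and 8195 in controls. The members' median in controls was then -0.01. On other probes of the called members, 13 of 17 had the same sign in controls and 12 of 19 after HLS.

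**Figure D5:**
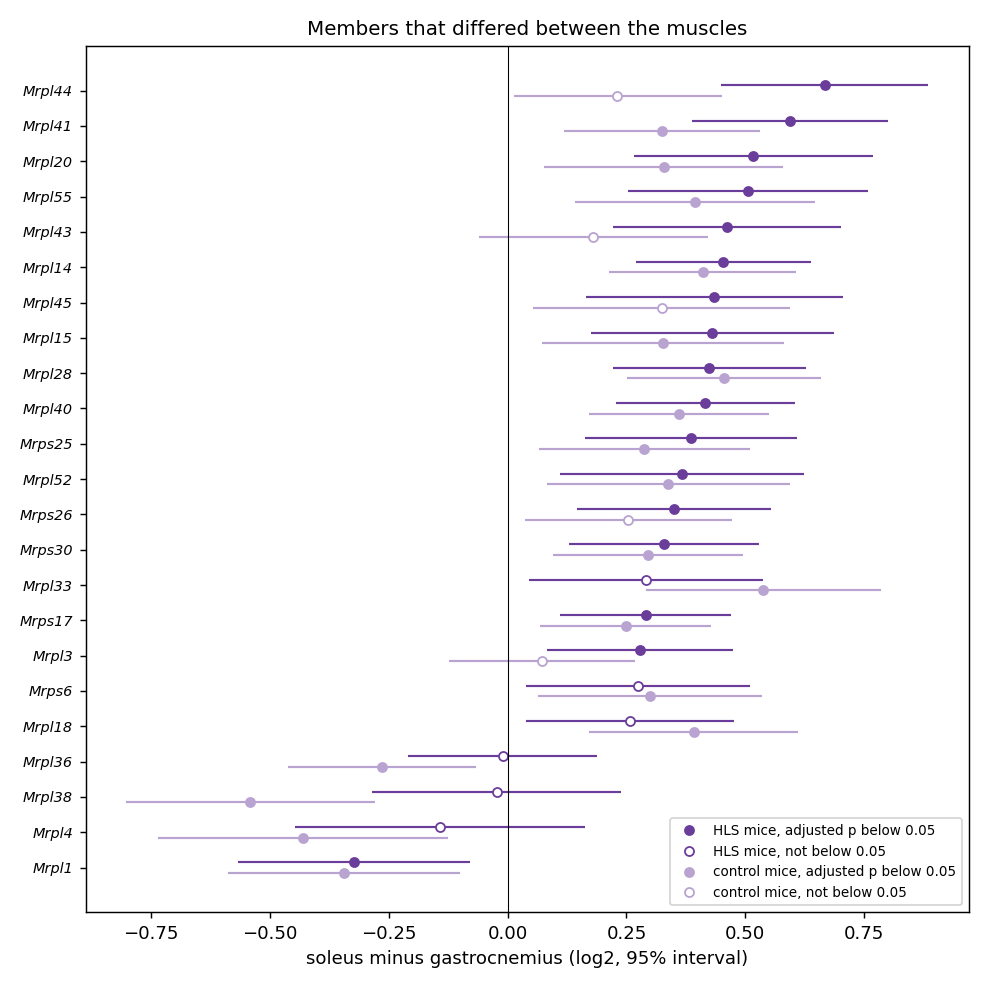
The 23 members that differed between soleus and gastrocnemius in at least 1 condition are ordered by their difference after HLS; points are log2 differences, soleus minus gastrocnemius, with 95% intervals, dark for HLS mice above light for control mice, and filled where the adjusted p is below 0.05. Most lie above 0 in both conditions, and Mrpl1, Mrpl4, Mrpl38 and Mrpl36 lie below 0 in both. Under quantile normalization the median of all 75 members turned below 0 (-0.041 after HLS, -0.098 in controls).

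Genes that build or serve the mitoribosome moved in both directions. Of 31 assembly, rRNA modification and GTPase genes, 4 rose and 1 fell in soleus, and 2 fell in gastrocnemius. Mrm1, which methylates the large mitochondrial rRNA, fell by 1.13 ± 0.17 in soleus (adjusted p = 3e-04) and 1.11 ± 0.17 in gastrocnemius (adjusted p = 0.00099), more than any member. In soleus the rRNA pseudouridine synthase gene Rpusd4 rose by 0.77 (adjusted p = 0.034) and Eral1, a chaperone of the small-subunit rRNA, by 0.51 (adjusted p = 0.05, below the threshold before rounding). The 2 other genes of this list that rose, Rcc1l (0.45) and Malsu1 (0.39), are assembly factors too and were named because of their values. In gastrocnemius the GTPase gene Mtg1 fell by 0.49 (adjusted p = 0.036). None of 16 translation factor and activator genes passed in either muscle by limma, where 1 stood higher and 1 lower at an unadjusted p below 0.05 in each.

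Of 11 genes of mitochondrial DNA transcription and replication, Polg2, the accessory subunit of the DNA polymerase, rose in soleus (0.45 ± 0.092, adjusted p = 0.0039) and gastrocnemius (0.39 ± 0.092, adjusted p = 0.02). Among 13 regulators of mitochondrial genes, 2 fell in each muscle and none rose. Ppargc1a, the coactivator PGC-1α, averaged 0.23 ± 0.35 in HLS soleus and 1.11 ± 0.59 in control soleus (SD, n = 5 each), a fall of 0.88 ± 0.22 (adjusted p = 0.02). In gastrocnemius it averaged 0.66 ± 0.17 after HLS and 1.39 ± 0.25 in controls, which did not pass (adjusted p = 0.084). Ppara, a nuclear receptor of fat oxidation, fell by 1.12 in soleus (adjusted p = 0.022) and 1.38 in gastrocnemius (adjusted p = 0.0085). Esrra, a receptor that works with PGC-1α, fell in gastrocnemius by 0.52 ± 0.14 (adjusted p = 0.041) and stood at -0.40 in soleus (adjusted p = 0.094). Gabpa, the DNA-binding part of GABP, stood at -0.21 in soleus and -0.23 in gastrocnemius (adjusted p = 0.19 and 0.18). Nrf1 (0.21, -0.03), Tfam (0.15, -0.057) and Myc (0.15, 0.067) did not pass in soleus or gastrocnemius.

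Some mitoribosomal genes lay outside the naming rule. The array carries Mrpl42, Mrpl57 and Mrpl58 under older names, and further subunits have other symbols. A list of 7 held Mrpl57, Mrpl58, Dap3, Ptcd3, Chchd1, Aurkaip1 and Gadd45gip1, and not Mrpl42. None of these 7 passed after HLS in limma, although all 7 stood below 0 in gastrocnemius, with a median of -0.208 and 3 at an unadjusted p below 0.05 (7.84% of all genes were lower at that level). In soleus their median was -0.031, with 0 at an unadjusted p below 0.05. Mrpl42, outside that list, differed by -0.23 in gastrocnemius (adjusted p = 0.39 in limma) and -0.246 in soleus (adjusted p = 0.28). The 75 members lie on 17 chromosomes, with 10 on chromosome 11 and 8 on chromosome 17. RefSeq places a gene on the opposite strand that starts within 1 kb for 24 of the 66 members with a promoter in its table. The other members could not be read for this. An overlapping protein-coding gene was found for 19 of all 75. Which transcript a probe reads in such an overlap was not tested. Mrpl46 and Mrps11 start within 1 kb of each other on opposite strands and run apart without overlap, as do Mrpl47 and Ndufb5. Mrpl47 differed by -0.46 in soleus (adjusted p = 0.083) and -0.53 in gastrocnemius (adjusted p = 0.064), beside -0.41 (adjusted p = 0.021) and -0.25 (adjusted p = 0.24) for Ndufb5. Another kept probe of Mrpl47 moved less, by -0.241 in soleus and -0.249 in gastrocnemius. These pairs of neighbouring genes were singled out after their values were seen.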

How the data were processed

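Each of 20 one-colour arrays held RNA of 1 muscle of 1 mouse. The deposited files give each spot's intensity on a linear scale, background-subtracted by Agilent Feature Extraction 9.1.3.1 and not scaled between arrays, per the file headers. The authors' matrix of values differed from it by less than 0.5%. Here uneven spots were dropped (at most 43 an array), and log2 intensity was taken relative to the array's 75th percentile over 43379 noncontrol spots (385.5 to 736.1). Spots of a probe were averaged. Of 41174 probes, those well above background (80.49% to 92.98% an array) on 4 of 5 arrays of a group were kept. With 5 arrays a group, that number sets the precision. The 4 group means were fitted with limma 3.58.1 in R 4.3.3, two-sided, and 5 contrasts were read from 1 fit, which was tested on simulated data.

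Probes were named through RefSeq (GRCm38.p6) by accession (22951), current symbol (6659) or older symbol (3109), and 8455 kept the file's name. Members and lists were chosen with earlier results of these data known. Named are the 6 highest and 6 lowest members called in a contrast (the 4 lowest p where fewer than 3 passed), 17 members and 6 regulators whatever their values, and up to 2 called genes at each end of other lists. Alternatives changed scaling, background (normexp, offset 50), filter, probe rule, block and samples. Slide as a random block, and batches without soleus HLS 1, were chosen after seeing the data. Arrays carry animal numbers, and both muscles were taken from each animal, per the labels; deviations of both muscles of 1 number correlated at -0.344 to 0.17 over 10 mice (median 0.036). Control and HLS mice of a number are different animals.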

Additional observations from a re-analysis of the deposited data

Results flagged for a closer look

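Within groups of 5 arrays, 7 of 136 combinations of named member and group had 1 array further from the others than Dixon's 95% limit, where chance gives about 1 in 20. Mrpl3 stood at 3.41 on soleus HLS 5, below 3.71 to 3.77 on the other HLS arrays. Mrpl38 stood at 2.14 on soleus HLS 1, above 1.64 to 1.72, and at 1.80 on gastrocnemius control 5, below 2.19 to 2.21. Mrpl36 stood at 3.08 on gastrocnemius control 1, below 3.29 to 3.34. Mrpl28 stood at 5.31 on gastrocnemius HLS 4, above 5.21 to 5.24, and Mrpl14 at 5.61 on gastrocnemius HLS 2, below 5.79 to 5.84. Mrps30 stood at 1.67 on gastrocnemius control 5, below 1.84 to 1.87.

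The change of Mrpl38 after HLS in soleus minus that in gastrocnemius was 0.52. This difference did not pass in limma (adjusted p = 0.66). The estimated changes had opposite signs, 0.185 in soleus and -0.333 in gastrocnemius, and the gene was called in neither muscle.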

How the results depend on the processing

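In soleus, where 3 members fell after HLS, 5 were called under median scaling, 5 under quantile normalization and 7 with normexp background. Among 25292 genes these settings called 1329, 1474 and 1967. With slide as a block, scan day as a block, the replicate block or arrays of the compared groups only, 0 members were called (22, 776, 1076 and 705 genes). In gastrocnemius, where 7 fell, 0 were called with slide, or with scan day, as a block (10 and 16 genes). The replicate block called 3 there (494 genes). Between muscles in controls, 0 members were called with scan day as a block (1374 genes) and 9 with arrays of the compared groups only (8087 genes), beside a main count of 18. After HLS, median scaling called 30 members between muscles (9052 genes), beside a main count of 17. Scaling to spike-ins put the members' median at -0.338 in soleus, 0.648 in gastrocnemius, -0.969 for the difference of the responses and 1.1 between control muscles. Slide as a block put the difference of the responses at -0.009 (0.069 otherwise). Between muscles, median scaling gave 0.227 after HLS and 0.212 in controls, and quantile normalization -0.041 and -0.098. Nrf1 between muscles after HLS turned to -0.179 with the mean of all its probes (adjusted p = 0.22). With 1 array left out, calls ranged from 0 to 4 in soleus, 2 to 7 in gastrocnemius, 14 to 21 between muscles after HLS and 10 to 17 in controls. The replicate block changed no count of the muscle contrasts. Deviations of control and HLS arrays of 1 number correlated at -0.305 to 0.167. Both muscles of 1 animal gave a like range (-0.344 to 0.17), so these correlations do not show which arrays share an animal. Few genes pass with slide as a block (22 of 25292 in soleus, 10 in gastrocnemius), and the cause of the other shifts was not tested. A direction counts as turned only where either value passed.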
